A study of Homo sapiens with 9 samples.

Results

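DDAH1 and the enzymes of protein arginine methylation were followed in A549 cells, a human lung adenocarcinoma line, after depletion of REV1, a translesion DNA polymerase. The 9 genes were taken by symbol from the 18143 genes of the deposited files: DDAH1, DDAH2, PRMT1, PRMT2, PRMT3, PRMT5, PRMT6, PRMT7 and CARM1. DDAH1 was included because its FPKM (fragments per kilobase of transcript, scaled to the mapped reads of the library) was higher than in the Scramble library of the same replicate number after both siRNAs. Its difference from Scramble is therefore described without a test, and the question for the other 8 genes was whether they differed as well.

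The 3 groups were A549 cells harvested 48 h after transfection with a scramble siRNA (Scramble) or with 1 of 2 siRNAs directed at REV1 (SiREV1#1 and SiREV1#2), with 3 replicates each. All cells were the same line and each was transfected, so no untransfected level was measured. The labels do not say what a replicate number marks, and p-values measure only the spread between these libraries. A549 carried KRT8 and KRT18, keratins of simple epithelia, at 1372 FPKM or more in every library, whereas KRT19 (at most 1.34 FPKM) and EPCAM (at most 2.38 FPKM) were low. The markers of other cells that the files list, PTPRC, PECAM1, VWF, COL1A1 and COL3A1, reached at most 1.57 FPKM.

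Protein arginine methyltransferases (PRMTs) move methyl groups from S-adenosylmethionine to arginine residues of histones, RNA-binding proteins and signalling proteins. Type I enzymes make asymmetric dimethylarginine, type II enzymes make symmetric dimethylarginine, and the type III enzyme makes monomethylarginine. When methylated proteins are degraded, free asymmetric dimethylarginine is released and inhibits nitric oxide synthases. Dimethylarginine dimethylaminohydrolase, the enzyme named in DDAH1 and its paralog DDAH2, is known for breaking this inhibitor down to citrulline.

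The DDAH1 transcript is located here by the primers with which the study measured it by PCR. All reads of the gene are summed in the files, and these primers lie in a part that its annotated isoforms share. They are shown only for their position, and the outcome of that PCR is not reported here.
Forward: atggcggagatgttttat
Reverse: actggcactgtggagact
The forward primer lies in coding exon 2 and the reverse primer in coding exon 4 of the 6 exons of DDAH1-201 (GRCh38, minus strand, chr1:85358754-85358771 and chr1:85350509-85350526). Both were found in all 5 annotated DDAH1 transcripts, where they enclose 124 bases, and in 0 transcripts of other genes.

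The sites below are shown because they are the stretches of these genes that match bases 2 to 8 of an siRNA guide strand. The sense strand letters searched were CAGGAAT for SiREV1#1 and GGACGAC for SiREV1#2, on the transcript strand of 1 reference transcript per gene, and the match is in capitals.
DDAH1: caaacctgCAGGAATcagcctat
PRMT2: ttcatgatGGACGACccagtccc
PRMT7: cacatcatGGACGACatgattaa
The DDAH1 match lies in the 3′ UTR, in exon 6 of DDAH1-201 (capitals at chr1:85320129-85320135, minus strand). The PRMT2 match lies in the coding part of exon 10 of PRMT2-205 (chr21:46663416-46663422, plus strand). The PRMT7 match lies in the coding part of exon 16 of PRMT7-201 (chr16:68353551-68353557, plus strand). No other match to either word was found in the coding sequence or 3′ UTR of the 9 reference transcripts. CAGGAAT was present in 15.8% of coding sequences and 13.5% of 3′ UTRs over all genes, and GGACGAC in 9.73% and 1.11%. These are matches of letters and not measured sites.

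REV1 itself was measured at 7.23, 7.90 and 8.44 FPKM in Scramble replicates 1, 2 and 3. It was 2.60, 2.92 and 3.36 FPKM after SiREV1#1 and 3.62, 3.36 and 3.18 FPKM after SiREV1#2. The labels therefore matched the level of the targeted gene in all 9 libraries. With the replicate number as a block in edgeR, REV1 fell by 1.26 on the log2 scale after SiREV1#1 (SE 0.125, adjusted p = 0.0016) and by 1.26 after SiREV1#2 (SE 0.148, adjusted p = 0.0099). Without the block the adjusted p was 0.042 and 0.15.

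Total counts were between 13059082 and 20166451 per library, the lowest in SiREV1#1 replicate 1. The count column deposited for SiREV1#2 replicate 3 was identical to that of replicate 2 for all genes, whereas 3.07% of their FPKM values above 0 were identical. Tests on counts therefore used 8 libraries, with SiREV1#2 represented by 2, and FPKM values are given for all 9. Replicate 1 stood apart in every group. Of 12335 genes with a mean FPKM over 0.5, 9.5% had a replicate 1 value over 2-fold away from the other replicates, in the same direction in all 3 groups. Among the 9 genes, DDAH1, DDAH2, PRMT1, PRMT3 and PRMT5 were lower in replicate 1 of every group, and PRMT2, PRMT7 and CARM1 were higher. The difference was small for PRMT5, at -0.084 in Scramble, -0.058 with SiREV1#1 and -0.024 with SiREV1#2 on the log2(FPKM + 1) scale. For DDAH1 the difference of replicate 1 from the others was -1.175 in Scramble, -0.59 with SiREV1#1 and -1.415 with SiREV1#2 on the log2(FPKM + 1) scale. Because of this shift, comparisons within the same replicate number and fits with the replicate number as a block are given beside the fits without it.

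In the Scramble libraries, PRMT1 was the most abundant of the 9 transcripts (302.1 ± 65.1 FPKM, SD, n = 3), followed by PRMT5 (69.1 ± 4.06 FPKM). PRMT3, DDAH2 and CARM1 came next at mean levels of 27.0, 24.6 and 22.8 FPKM, and their ranges over the 3 libraries overlapped. PRMT2, PRMT7 and DDAH1 had mean levels of 12.7, 11.4 and 10.2 FPKM and overlapped as well. PRMT6 was listed at 0.

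**Figure D1:**
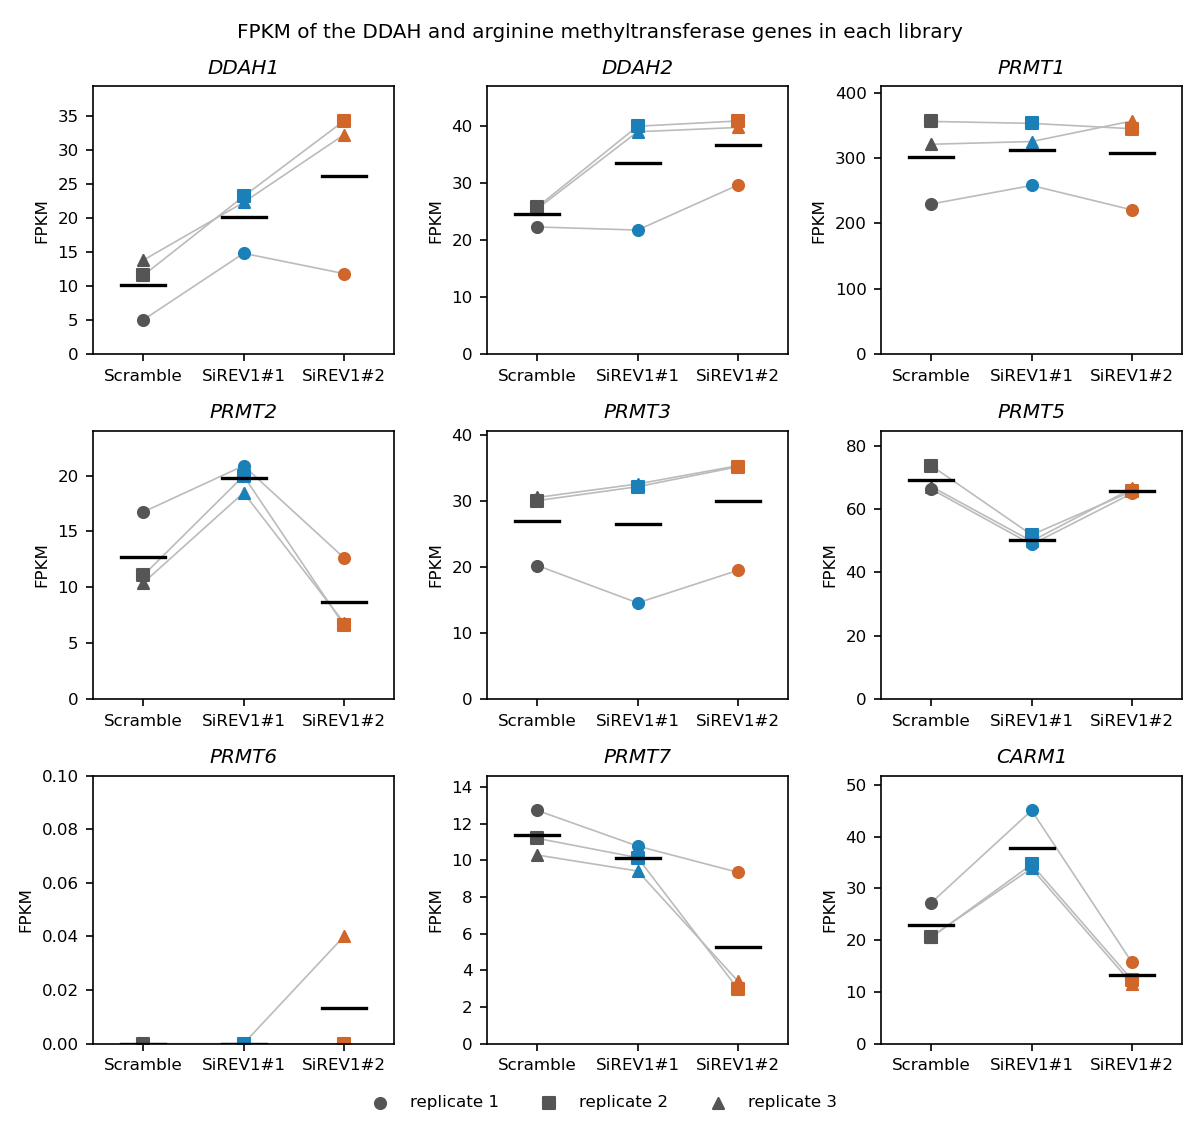
FPKM of the 9 genes in each library, with 1 panel per gene and a separate vertical axis from 0. Circles, squares and triangles are replicates 1, 2 and 3, grey lines join libraries with the same number, and black bars are the means of 3 libraries. Within every replicate number, CARM1 and PRMT2 were highest with SiREV1#1 and lowest with SiREV1#2, and DDAH1 was lowest in Scramble.

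DDAH1 lies on the minus strand of chromosome 1 (chr1:85318481-85578363). It was 5.05, 11.59 and 13.82 FPKM in Scramble replicates 1, 2 and 3. With SiREV1#1 it was 14.83, 23.21 and 22.32 FPKM, and all 3 libraries lay above all Scramble libraries. With SiREV1#2 it was 11.85, 34.29 and 32.25 FPKM, and replicate 1 lay below Scramble replicate 3, so that these groups overlapped. Within pairs of the same number, DDAH1 was 2.94, 2.00 and 1.62 times the Scramble FPKM with SiREV1#1 and 2.35, 2.96 and 2.33 times with SiREV1#2. Being higher in 3 of 3 pairs was seen in 19.6% of 12335 genes for SiREV1#1 and in 25.2% for SiREV1#2, and 6.23% of the genes were so for both, which share the Scramble libraries. The largest ratio was that of pair 1 for SiREV1#1 and that of pair 2 for SiREV1#2.

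Without a block, the fitted log2 fold change of DDAH1 was 1.04 for SiREV1#1 and 1.21 for SiREV1#2. With the replicate number as a block, it was 1.16 and 1.33. Standard errors are left out here because DDAH1 was chosen on these contrasts. Leaving out SiREV1#2 replicate 2, which left replicate 1 as the lone SiREV1#2 library with counts, lowered the SiREV1#2 value without a block to 0.27, and leaving out SiREV1#2 replicate 1 raised it to 1.775. The SiREV1#1 value was 0.72 without Scramble replicate 1 and 1.331 without Scramble replicate 3, the ends of its range over the fits that left out 1 library.
The direct comparison of the siRNAs did not use the rule. DDAH1 was 1.25 times as high with SiREV1#1 as with SiREV1#2 in pair 1, and 0.677 and 0.692 times as high in pairs 2 and 3. The blocked log2 difference was -0.175 (95% interval -0.75 to 0.40, adjusted p = 0.67, edgeR), and equal levels could not be told apart from differences within these bounds. With replicates 2 and 3 alone it was -0.58 in edgeR (adjusted p = 0.00017), and in the fit without a block it turned to 0.78 (adjusted p = 0.61) without SiREV1#2 replicate 2. In limma on FPKM with the block it passed in 1 of 9 fits that left out 1 library, the one without SiREV1#1 replicate 1 (adjusted p = 0.0072).

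DDAH2, the paralog on the minus strand of chromosome 6 (chr6:31727038-31730617), was 22.33, 25.84 and 25.53 FPKM in Scramble. It was 21.79, 40.02 and 39.05 FPKM with SiREV1#1, where replicates 2 and 3 were above and replicate 1 below every Scramble library. It was 29.68, 40.94 and 39.80 FPKM with SiREV1#2, where all 3 libraries lay above Scramble. The blocked log2 fold change was 0.47 (SE 0.138, adjusted p = 0.063, edgeR) for SiREV1#1 and 0.62 (SE 0.159, adjusted p = 0.097) for SiREV1#2, and neither passed the threshold of 0.05. On log2(FPKM + 1) with all 9 libraries and the block in limma, the value for SiREV1#2 was 0.55 (SE 0.139, adjusted p = 0.042), and it did not pass in 7 of 9 fits that left out 1 library (adjusted p up to 0.22). Those 7 fits left out Scramble replicate 2 or 3, replicate 2 or 3 of SiREV1#1, or any SiREV1#2 library. DDAH1 and DDAH2 were each higher in all 3 pairs with SiREV1#2, whereas with SiREV1#1 DDAH2 was 0.976 times the Scramble level in pair 1 and 1.55 and 1.53 times in pairs 2 and 3.

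The edgeR fit without a block called none of the 7 tested genes other than DDAH1, which were DDAH2 and 6 PRMT genes, in any comparison at an adjusted p under 0.05. This fit called 0.296% of 14205 genes for SiREV1#1 against Scramble, 0.00% for SiREV1#2 against Scramble and 0.676% for SiREV1#1 against SiREV1#2. At an unadjusted p under 0.05 it had PRMT5 and CARM1 for SiREV1#1 (9.75% of all genes), CARM1 for SiREV1#2 (5.48%) and PRMT2 and CARM1 between the siRNAs (12.4%). DESeq2 called PRMT5 for SiREV1#1 (adjusted p = 0.041, beside 4.01% of all genes), no gene of the 7 for SiREV1#2 (1.52%) and CARM1 between the siRNAs (adjusted p = 5.1e-05, beside 6.18%).
With the replicate number as a block, the typical coefficient of variation between libraries in edgeR fell from 0.412 to 0.161. That fit called 2 of the 7 genes for SiREV1#1 (12.3% of all genes), 1 for SiREV1#2 (1.91%) and 2 between the siRNAs (17.6%). The genes were CARM1 in each comparison and PRMT2 with SiREV1#1 and between the siRNAs. In limma on log2(FPKM + 1) with the block and all 9 libraries, 3 of the 7 genes were called for SiREV1#1 (18.5% of 12335 genes), 3 for SiREV1#2 (10.5%) and 4 between the siRNAs (35.2%). The FPKM values were not scaled further between libraries, and the median log2 fold change over all genes in that limma fit was -0.062, -0.003 and -0.056. The median log2 fold change of the 7 genes in the blocked edgeR fit was 0.137 for SiREV1#1 and -0.073 for SiREV1#2, against 0.004 and 0.007 over all genes tested.
Replicates 2 and 3 alone differed little from each other, and calls were frequent among all genes when only they were compared. In edgeR, 4 of the 7 genes were then called for SiREV1#1 (DDAH2, PRMT2, PRMT5 and CARM1, beside 46.5% of 14181 genes) and 5 for SiREV1#2 (DDAH2, PRMT2, PRMT3, PRMT7 and CARM1, beside 38.4%). Between the siRNAs PRMT2, PRMT5, PRMT7 and CARM1 were called (beside 54.4%). In limma on FPKM the same genes were called, and PRMT3 between the siRNAs as well (adjusted p = 0.047), beside 54.3%, 52.7% and 67.9% of 12175 genes. SiREV1#2 had 1 count library in that edgeR fit, so its lone library was assumed to vary like those of the other groups.

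**Figure D2:**
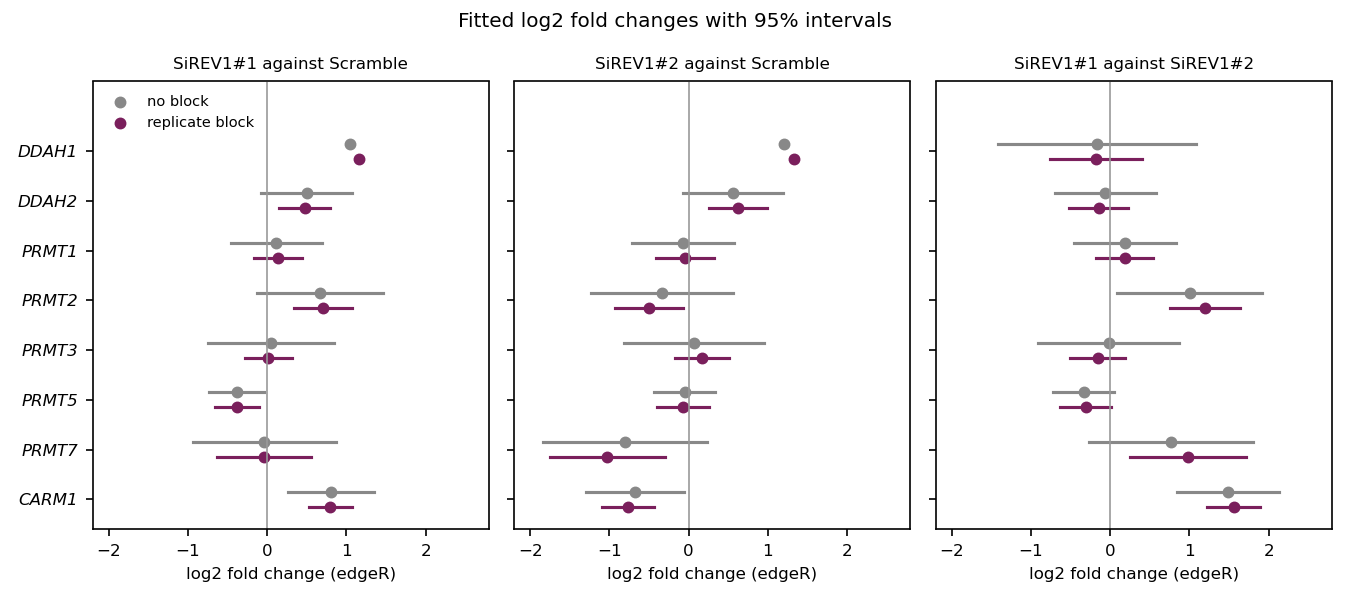
Fitted log2 fold changes of the 8 tested genes from edgeR, in 1 panel per comparison, without a block (grey) and with the replicate number as a block (purple). Lines are 95% intervals, which are left out for DDAH1 against Scramble because DDAH1 was chosen on those contrasts. The CARM1 values lie at 0.81 and 0.79 for SiREV1#1 and at -0.68 and -0.76 for SiREV1#2.

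CARM1, also known as PRMT4, is a type I enzyme and a transcriptional coactivator that methylates histone H3 and splicing factors. It lies on the plus strand of chromosome 19 (chr19:10871513-10923070). It was 27.24, 20.54 and 20.67 FPKM in Scramble replicates 1, 2 and 3. With SiREV1#1 it was 45.03, 34.62 and 33.86 FPKM, above every Scramble library. With SiREV1#2 it was 15.72, 12.35 and 11.59 FPKM, below every Scramble library. CARM1 thus differed from Scramble in opposite directions with siRNAs against the same gene, as did PRMT2 and the arginine transporter gene SLC7A1 within pairs. The same direction in 3 of 3 pairs was seen in 54.2% of 12335 genes for SiREV1#1 and in 54.7% for SiREV1#2. The share of all genes with opposite directions for the siRNAs is not given here. The within-pair ratios to Scramble hardly varied, at 1.65, 1.69 and 1.64 times for SiREV1#1 and 0.577, 0.601 and 0.561 times for SiREV1#2.
With the block in edgeR, CARM1 rose 1.73-fold with SiREV1#1 (log2 0.79, SE 0.117, adjusted p = 0.0064) and fell with SiREV1#2 to 0.589 times Scramble (log2 -0.76, SE 0.14, adjusted p = 0.041). It was 2.94-fold higher with SiREV1#1 than with SiREV1#2 (log2 1.56, SE 0.143, adjusted p = 0.0012). Without a block the log2 values were 0.81, -0.68 and 1.485 with adjusted p of 0.28, 0.83 and 0.067. On FPKM in limma with the block, CARM1 passed in all 3 comparisons in each of the 9 fits that left out 1 library, with the highest adjusted p at 0.025, 0.045 and 0.0014.

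The exons of CARM1 share 886 bases, 19.9% of its annotated exon bases, with YIPF2 on the opposite strand, and the counts of CARM1 were not whole numbers in any of the 8 libraries. The sources do not say that strand was kept in counting, so reads from the shared bases cannot be told apart. YIPF2, looked up because of this overlap, was 9.76, 12.58 and 11.88 FPKM in Scramble, 19.15, 15.10 and 16.09 FPKM with SiREV1#1 and 8.69, 9.72 and 10.93 FPKM with SiREV1#2. Its blocked log2 difference between the siRNAs was 1.04 (SE 0.23, adjusted p = 0.021, edgeR), and it was 0.69 (adjusted p = 0.055) and -0.35 (adjusted p = 0.49) against Scramble. YIPF2 was called in limma on FPKM with the block for SiREV1#1 (log2 0.52, adjusted p = 0.039) but not for SiREV1#2 (adjusted p = 0.41), and without a block it had an adjusted p of 0.31 for SiREV1#1 and 0.14 between the siRNAs in edgeR. Its part in the CARM1 values was not tested.

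**Figure D3:**
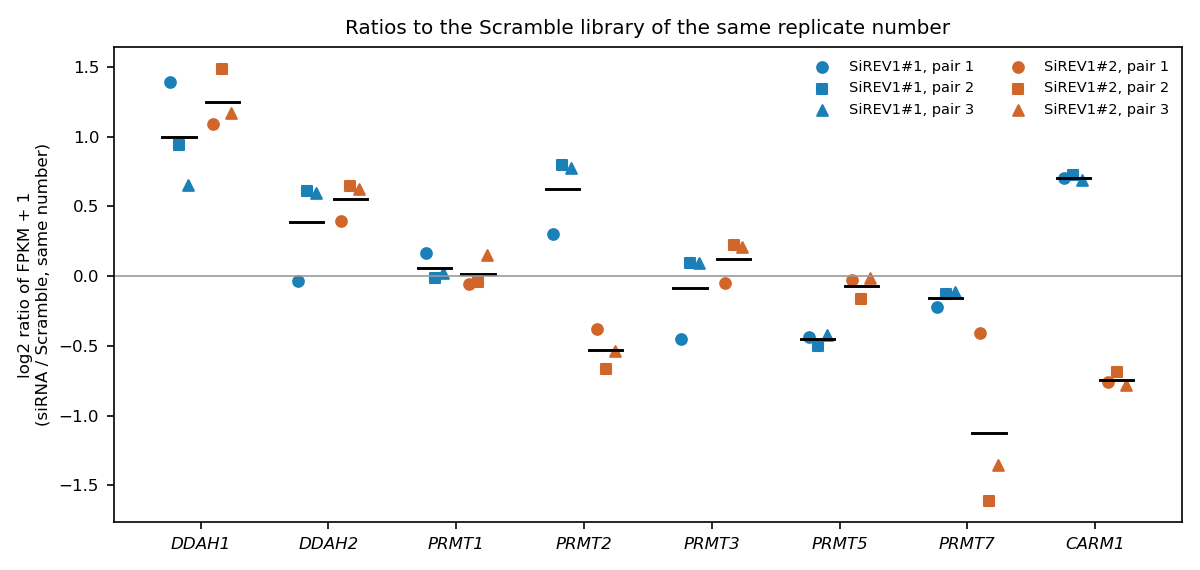
Log2 ratios of FPKM + 1 between each siRNA library and the Scramble library of the same number, for the 8 genes above 0. Points are pairs and black bars their means (n = 3). The CARM1 points lie between 0.69 and 0.73 for SiREV1#1 and between -0.78 and -0.69 for SiREV1#2, and the PRMT7 points of SiREV1#2 spread from -0.41 to -1.61.

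PRMT2 is a type I enzyme with an SH3 domain that acts as a coregulator of nuclear receptors (chr21:46635167-46665124, plus strand). It was 16.75, 11.07 and 10.40 FPKM in Scramble. With SiREV1#1 it was 20.89, 19.98 and 18.47 FPKM, above every Scramble library. With SiREV1#2 it was 12.65, 6.61 and 6.84 FPKM, where replicate 1 lay within the Scramble range and the other libraries lay below it. Within pairs PRMT2 was 1.25, 1.80 and 1.78 times Scramble with SiREV1#1 and 0.755, 0.597 and 0.658 times with SiREV1#2. With the block in edgeR it rose 1.63-fold with SiREV1#1 (log2 0.70, SE 0.158, adjusted p = 0.028), and the value for SiREV1#2 was -0.50 (SE 0.187, adjusted p = 0.22). The difference between the siRNAs was 1.20 on the log2 scale (SE 0.191, adjusted p = 0.0067), against 1.00 (adjusted p = 0.34) without the block.
On FPKM in limma with the block, the difference between the siRNAs passed in 9 of 9 fits that left out 1 library. The SiREV1#1 value passed in 3 of 9 and had an adjusted p of up to 0.12 without any 1 Scramble library, replicate 2 or 3 of SiREV1#1 or SiREV1#2 replicate 3. Without SiREV1#2 replicate 2, the PRMT2 value for SiREV1#2 in the fit without a block was 0.098 instead of -0.341. PRMT2 counts were not whole in any of the 8 libraries.

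PRMT5, the main type II enzyme (chr14:22920511-22929585, minus strand), was 66.32, 73.73 and 67.13 FPKM in Scramble. With SiREV1#1 it was 48.84, 51.88 and 49.88 FPKM, below every other library of the study. With SiREV1#2 it was 64.97, 65.64 and 66.53 FPKM, just under or within the Scramble range. The pair ratios for SiREV1#1 were 0.736, 0.704 and 0.743 times Scramble. The blocked log2 fold change was -0.38 (SE 0.12, adjusted p = 0.079, edgeR) for SiREV1#1 and -0.07 (SE 0.141, 95% interval -0.40 to 0.25, adjusted p = 0.85) for SiREV1#2. On FPKM in limma with the block, PRMT5 passed for SiREV1#1 (log2 -0.45, SE 0.093, adjusted p = 0.014) and for SiREV1#1 against SiREV1#2 (log2 -0.38, SE 0.093, adjusted p = 0.015). The first of these did not pass without Scramble or SiREV1#1 replicate 2 or 3, and the second without replicate 2 or 3 of either siRNA, with adjusted p up to 0.083 and 0.11. The antisense gene PRMT5-AS1 covers 27.1% of the PRMT5 exon bases.

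PRMT7, the type III enzyme (chr16:68310974-68358563, plus strand), was 12.71, 11.19 and 10.28 FPKM in Scramble and 10.77, 10.14 and 9.41 FPKM with SiREV1#1, with overlapping ranges. With SiREV1#2 it was 9.34, 2.99 and 3.41 FPKM, below every Scramble library. Replicate 1 kept 0.735 times the Scramble level and replicates 2 and 3 had 0.267 and 0.332 times. This spread between pairs was the widest among the 8 genes (SD 0.634 of the log2 ratio), and the blocked log2 fold change in edgeR was -1.03 (SE 0.314, adjusted p = 0.15). In limma on FPKM with the block it was -1.12 (SE 0.237, adjusted p = 0.024), and this call was lost without replicate 2 or 3 of Scramble or of SiREV1#2 (adjusted p up to 0.15). Against SiREV1#2, PRMT7 was higher with SiREV1#1 by 0.98 on the log2 scale in edgeR (SE 0.314, adjusted p = 0.067). In limma that difference was 0.97 (adjusted p = 0.015), and it was lost without replicate 2 or 3 of either siRNA (adjusted p up to 0.081).

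PRMT1, which makes most asymmetric dimethylarginine in mammalian cells (chr19:49675786-49689029, plus strand), was 229.62, 355.80 and 320.91 FPKM in Scramble. It was 257.89, 352.83 and 325.09 FPKM with SiREV1#1 and 220.61, 344.65 and 356.47 FPKM with SiREV1#2, and all 3 groups overlapped. The blocked log2 fold change was 0.14 for SiREV1#1 (95% interval -0.17 to 0.445, adjusted p = 0.55, edgeR) and -0.05 for SiREV1#2 (95% interval -0.41 to 0.32, adjusted p = 0.92).
PRMT3, a type I enzyme that methylates a ribosomal protein of the small subunit (chr11:20387530-20509294, plus strand), was 20.23, 30.07 and 30.55 FPKM in Scramble. It was 14.56, 32.18 and 32.60 FPKM with SiREV1#1 and 19.49, 35.21 and 35.36 FPKM with SiREV1#2, and the spread between replicate 1 and the others exceeded any difference between groups. The blocked values were 0.015 (95% interval -0.28 to 0.31, adjusted p = 0.96) and 0.17 (95% interval -0.17 to 0.51, adjusted p = 0.62). With replicates 2 and 3 alone, PRMT3 was called with SiREV1#2 at a log2 fold change of 0.23 in edgeR (SE 0.077, adjusted p = 0.032), whereas PRMT1 did not pass in any fit.
PRMT6, a type I enzyme of histone H3 (chr1:107056679-107067636, plus strand), was listed at 0 FPKM in 8 libraries and at 0.04 FPKM in SiREV1#2 replicate 3. Its count was 0 in all 8 count columns, which allows up to 0.23 CPM (counts scaled to an equal total per library) in the shallowest library, for counting error only. PRMT6 has a single coding exon in GENCODE 29. Of 578 such genes in the files, 92 were listed at 0 in 8 or 9 libraries and 147 were above 1 FPKM in every library. PRMT6 did not pass the filter on low counts and was not tested.

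Within pairs of the same number, 4 of the 8 genes other than DDAH1 differed from Scramble in 1 direction in 3 of 3 pairs with SiREV1#1 (PRMT2 and CARM1 higher, PRMT5 and PRMT7 lower), as did 54.2% of 12335 genes. With SiREV1#2 there were 5 (DDAH2 higher, and PRMT2, PRMT5, PRMT7 and CARM1 lower), beside 54.7%. Between the siRNAs there were 6 (PRMT2, PRMT7 and CARM1 higher with SiREV1#1, and DDAH2, PRMT3 and PRMT5 lower), beside 59.0%. FPKM ranges of the siRNA and Scramble libraries did not overlap for 3 of the 8 genes other than DDAH1 with SiREV1#1 (PRMT2, PRMT5 and CARM1), beside 19.7% of 12335 genes. For SiREV1#2 they did not overlap for DDAH2, PRMT7 and CARM1, beside 15.8%. Between the siRNAs they did not overlap for PRMT2, PRMT5, PRMT7 and CARM1, beside 23.6%.

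The other genes of arginine methylation and its surroundings were taken from 6 lists with 53 genes, of which 52 are in the files and 46 passed the filter on low counts. Without a block, edgeR called 0 of the 46 in each comparison. At an unadjusted p under 0.05 it had 4, 0 and 2 genes for SiREV1#1, SiREV1#2 and the difference between the siRNAs. The shares of all genes at that p were 9.75%, 5.48% and 12.4%. DESeq2 called 0, 0 and 1, beside 4.01%, 1.52% and 6.18% of all genes. With the replicate block, edgeR called 5 of 46 for SiREV1#1 (10.9%, beside 12.3% of all genes). It called 0 for SiREV1#2 (beside 1.91%) and 5 between the siRNAs (10.9%, beside 17.6%). For SiREV1#2, 7 had an unadjusted p under 0.05 (beside 18.1% of all genes), and limma with the block called 3 of 43 (6.98%, beside 10.5%). In these blocked edgeR fits the share of the lists called was near or below that of all genes.

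Of the 7 PRMT partners, BTG2 was higher and WDR77 lower with SiREV1#1 in the blocked fit. WDR77, the obligate partner of PRMT5 in the methylosome, was 19.68, 9.83 and 9.58 FPKM in Scramble, 9.51, 5.52 and 5.96 FPKM with SiREV1#1 and 21.50, 9.07 and 8.71 FPKM with SiREV1#2. It fell with SiREV1#1 by 0.78 on the log2 scale (SE 0.133, adjusted p = 0.011, edgeR) and lay at 0.07 with SiREV1#2 (SE 0.152, adjusted p = 0.87). Within each replicate number, the SiREV1#1 library was the lowest of the 3 for WDR77 and for PRMT5. BTG2, an antiproliferative protein that binds PRMT1, was 6.94, 51.30 and 52.85 FPKM in Scramble, 17.31, 103.48 and 104.25 FPKM with SiREV1#1 and 6.49, 47.32 and 47.25 FPKM with SiREV1#2. It rose with SiREV1#1 by 1.18 (SE 0.147, adjusted p = 0.0039) and lay at -0.125 with SiREV1#2 (SE 0.174, adjusted p = 0.78). Replicate 1 was the lowest BTG2 library of every group. CLNS1A and TOB1 did not pass the blocked edgeR test, but limma on FPKM with the block called both higher with SiREV1#1 than with SiREV1#2, beside 35.2% of all genes. None of the 2 other arginine methyltransferases in the files, PRMT9 and NDUFAF7, and none of the 7 readers of methylarginine or JMJD6 passed the blocked edgeR test in any comparison. At an unadjusted p under 0.05 there were 1 and 2 of them for SiREV1#1, 0 and 2 for SiREV1#2 and 0 and 1 between the siRNAs, beside 28.9%, 18.1% and 32.8% of all genes. In limma on FPKM with the block, NDUFAF7 was called lower with SiREV1#1 than in Scramble, beside 18.5% of all genes called. NDUFAF7 and PRMT9 were called lower with SiREV1#1 than with SiREV1#2 (beside 35.2%), and so was SMN1, whose reads cannot be fully told apart from those of its copy SMN2. In that fit the median log2 fold change over all genes was -0.062 and -0.056 in these comparisons.

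Of the 10 tested genes of arginine supply and use, GATM and SLC7A2 rose with SiREV1#1 in the blocked fit. GATM, which starts creatine synthesis from arginine, was 3.18, 1.07 and 1.3 FPKM in Scramble, 6.03, 3.57 and 3.52 FPKM with SiREV1#1 and 2.23, 0.81 and 0.93 FPKM with SiREV1#2. Its log2 fold change was 1.42 for SiREV1#1 (SE 0.186, adjusted p = 0.0045, edgeR) and -0.42 for SiREV1#2 (SE 0.227, adjusted p = 0.39). SLC7A2, a transporter of cationic amino acids, changed by 0.49 with SiREV1#1 (SE 0.119, adjusted p = 0.036) but had an adjusted p of 0.061 in limma on FPKM with the block, where it passed in 1 of 9 fits that left out 1 library. SLC7A1, the main arginine transporter of most cells, was 13.87, 30.89 and 31.21 FPKM in Scramble, 17.49, 38.91 and 42.03 FPKM with SiREV1#1 and 8.06, 24.08 and 21.96 FPKM with SiREV1#2. It was above Scramble in all pairs with SiREV1#1 and below it in all pairs with SiREV1#2. The difference between the siRNAs passed (log2 0.98, SE 0.169, adjusted p = 0.0091), whereas the values against Scramble did not (adjusted p = 0.08 and 0.16). In limma on FPKM with the block the value for SiREV1#2 passed (log2 -0.52, adjusted p = 0.024), but not without any 1 Scramble library or without SiREV1#2 replicate 2 or 3 (adjusted p up to 0.15). ASS1 and ASL, which rebuild arginine from citrulline, lay between 10.78 and 33.77 FPKM. They did not pass in any comparison in edgeR with or without the block or in limma with the block. Within pairs ASL was 0.983, 1.64 and 1.86 times Scramble with SiREV1#1 and 1.28, 0.869 and 1.03 times with SiREV1#2.

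Of the 9 tested genes of methyl donor supply, MAT1A rose with SiREV1#1 in the blocked fit. MAT1A, the liver form of the enzyme that makes S-adenosylmethionine, was low at 0.87, 0.28 and 0.45 FPKM in Scramble, 2.32, 1.22 and 1.31 FPKM with SiREV1#1 and 0.82, 0.23 and 0.22 FPKM with SiREV1#2. Its log2 fold change was 1.76 for SiREV1#1 (SE 0.234, adjusted p = 0.0046, edgeR) and -0.17 for SiREV1#2 (SE 0.295, adjusted p = 0.83). MAT2A, the form of the enzyme used outside the liver, was 135.93, 136.04 and 131.59 FPKM in replicate 1 of Scramble, SiREV1#1 and SiREV1#2 and between 16.01 and 19.75 FPKM in the other 6 libraries. Its blocked values against Scramble were 0.06 (SE 0.13, adjusted p = 0.82) and -0.12 (SE 0.152, adjusted p = 0.76). MAT2B and AHCY did not pass the blocked edgeR test in any comparison. In limma on FPKM with the block, MAT2B was called lower with SiREV1#1 than in Scramble (beside 18.5% of all genes) and than with SiREV1#2 (beside 35.2%). AHCY was called higher with SiREV1#1 than with SiREV1#2. MAT2B was 15.49 to 17.8 FPKM with SiREV1#1 and 22.66 to 25.01 FPKM in Scramble. The BTG2, GATM, MAT1A and WDR77 calls for SiREV1#1 and between the siRNAs, and the SLC7A1 call between the siRNAs, passed in 9 of 9 fits that left out 1 library in limma on FPKM with the block.

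**Figure D4:**
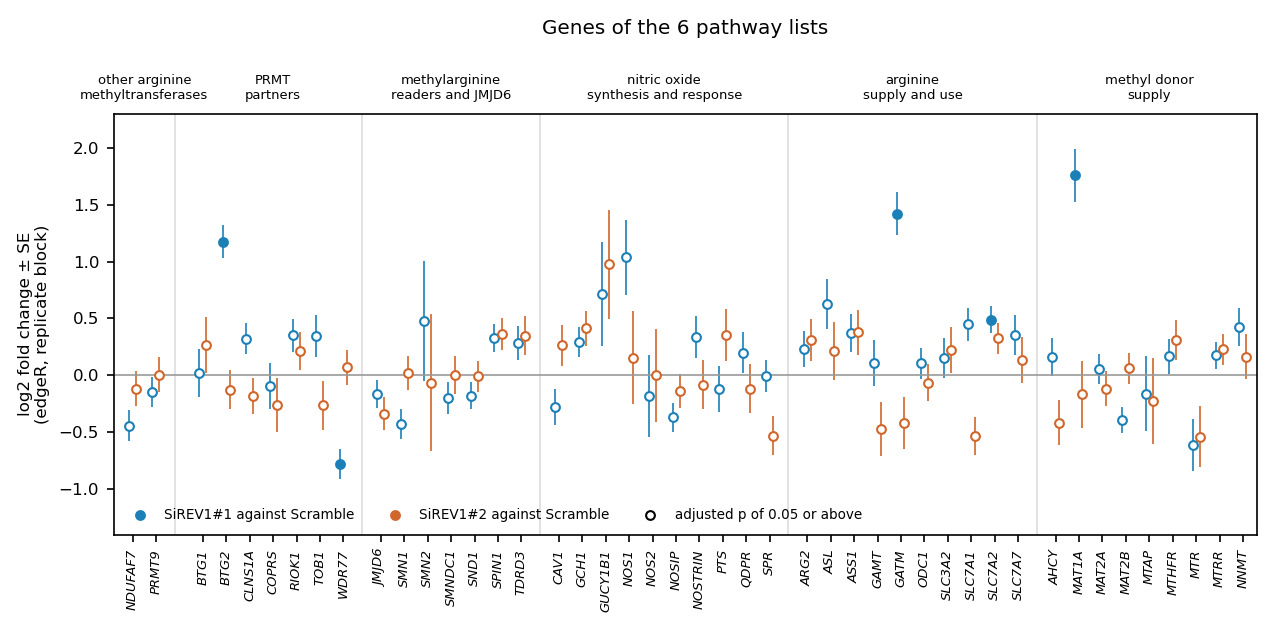
Log2 fold changes against Scramble with standard errors for the tested genes of the 6 lists (1 of the 46 is not drawn), from edgeR with the replicate number as a block. Blue points are SiREV1#1 and orange points SiREV1#2, and filled points had an adjusted p under 0.05. The 5 filled points, BTG2, WDR77, GATM, SLC7A2 and MAT1A, are all blue.

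The nitric oxide synthases, the enzymes that asymmetric dimethylarginine inhibits, were low by FPKM, although NOS1 and NOS2 passed the filter on low counts. In the libraries used for tests on counts, NOS1 lay between 0.98 and 3.62 CPM and NOS2 between 0.63 and 1.17 CPM. NOS1, NOS2 and NOS3 reached at most 0.33, 0.28 and 0.19 FPKM, and the guanylate cyclase subunits GUCY1A1 and GUCY1B1 that nitric oxide activates at most 0.03 and 0.33 FPKM. None of the 11 tested genes of nitric oxide synthesis and response passed the blocked edgeR test in any comparison, with 3 at an unadjusted p under 0.05 for SiREV1#1, 3 for SiREV1#2 and 2 between the siRNAs, beside 28.9%, 18.1% and 32.8% of all genes. In limma on FPKM with the block, the calls included lower NOSIP for SiREV1#1, lower SPR for SiREV1#2, and higher SPR and lower CAV1 with SiREV1#1 than with SiREV1#2. That fit called 18.5%, 10.5% and 35.2% of all genes in these comparisons.

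Genes whose level followed that of DDAH1 most closely were ranked by the Pearson correlation of log2(FPKM + 1) over the 9 libraries after the mean of each replicate number was subtracted, among 11428 other genes with a mean FPKM over 1. The first 5 were TMEM140 (r = 0.985), MANEA (r = 0.983), CHIC1 (r = 0.983), PTPN21 (r = 0.982) and NRBP1 (r = 0.977). These points share libraries and the correlations are a description. TMEM140 was 1.16, 3.05 and 3.15 FPKM in Scramble, 5.31, 7.39 and 6.15 FPKM with SiREV1#1 and 3.66, 8.65 and 9.32 FPKM with SiREV1#2. For MANEA the correlation with DDAH1 was -0.411 before the replicate means were subtracted, and for NRBP1 it was 0.485. Of the arginine methylation genes, DDAH2 was nearest to DDAH1 at rank 550 (r = 0.729), and PRMT7 was the farthest at rank 10458 (r = -0.738). CARM1 (r = -0.192) and PRMT2 (r = -0.215) did not follow DDAH1, and REV1 ranked 11288 (r = -0.923). DDAH1 was chosen for being above Scramble with both siRNAs, and the same siRNAs lowered REV1. A negative correlation between these genes therefore follows from that choice and is not evidence of a link.

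**Figure D5:**
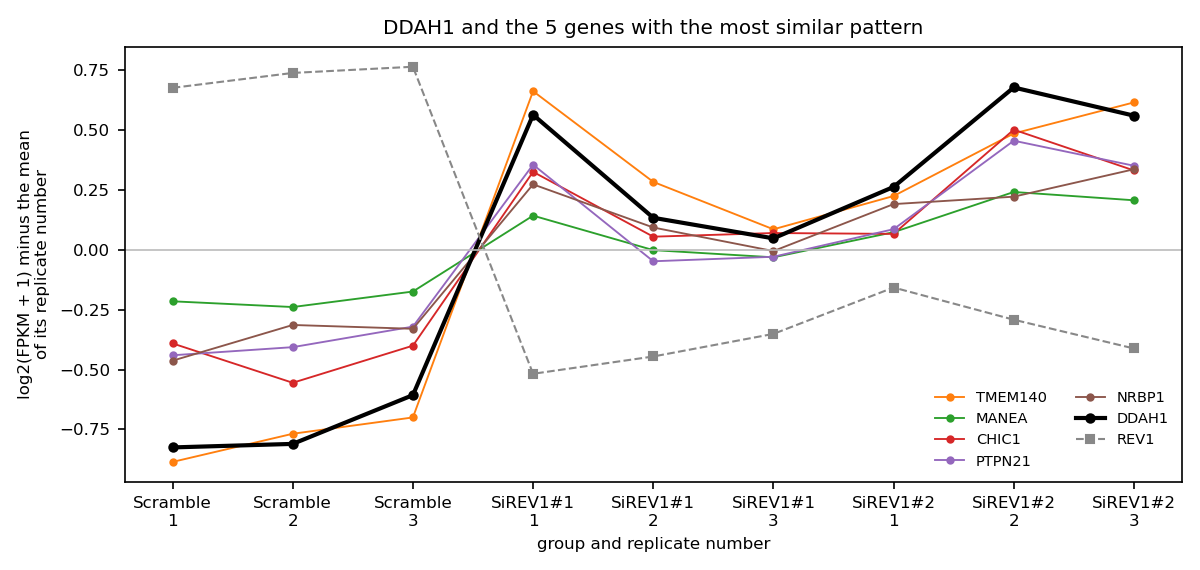
Log2(FPKM + 1) minus the mean of the replicate number for DDAH1 (black), the 5 genes with the highest correlation to it (coloured) and REV1 (grey, dashed) in the 9 libraries. The lines of DDAH1 and the 5 genes lie below 0 in the Scramble libraries and above 0 in SiREV1#1 replicate 1 and in all 3 SiREV1#2 libraries, whereas REV1 lies above 0 in the Scramble libraries and below 0 in the others. DDAH1 was chosen for its difference from Scramble, and REV1 is the target of both siRNAs, so their opposite course was given in advance.

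Annotated exons of several members overlap other genes, and the counts of these genes can include reads from either. DDAH1 shares 8.38% of its exon bases with the lincRNA AC092807.3 on the same strand, PRMT1 shares 7.63% with ADM5 on the same strand and 3.57% with AC011495.3 on the opposite strand, PRMT7 shares 2.53% with SMPD3 on the opposite strand and DDAH2 shares 1.46% with CLIC1 on the same strand. ADM5 was at most 3.04 FPKM and SMPD3 at most 0.17 FPKM in any library. CLIC1 was at 230.59 FPKM or more in every library, above DDAH2. For DDAH1, DDAH2, PRMT1 and PRMT5 the deposited counts were whole numbers in all 8 libraries.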

How the data were processed

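RNA was extracted with TRIzol from A549 cells and sequenced on the BGISEQ-500 platform after selection with oligo(dT) beads. The authors deposited, per library, FPKM values and an expected count for each of 18143 genes, 42.6% of the counts not being whole. The submitters' processing notes name StringTie 1.3.3b and hg38, and the aligner is not given in the sources used here. Samples were grouped by title.

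Counts were rounded and tested in edgeR 4.0.16 (R 4.3.3, TMM scaling, quasi-likelihood F test) on 14205 genes that passed filterByExpr, with all groups in 1 fit and Benjamini-Hochberg adjustment over all genes tested. The repeated count column was used once. The study states no test for sequencing data. Alternatives were the replicate number as a block, DESeq2 1.42.0, RLE and upper-quartile scaling, no filter, all 9 count columns, limma 3.58.1 on log2(FPKM + 1) or log2(FPKM + 0.1) for genes with a mean FPKM over 0.5, replicates 2 and 3 only, and leaving out each library. Leaving out libraries within the blocked limma fit was added after the data were seen. The edgeR and limma fits were also run on simulated counts. For the fits without a block these counts had no shift of replicate 1, unlike these data, so they do not show how those fits perform here.

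Over 11429 genes, the deviation of a library from its group mean correlated at 0.734 to 0.929 with that of the library with the same number in another group, so the numbers were treated as pairing the libraries. The differences between replicates 3 and 2 correlated at 0.175, -0.218 and -0.11, so this pairing rests on replicate 1. The pairing comes from the data and not from the labels.

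Positions and sequences were read from GENCODE 29 on GRCh38, in which 17380 symbols (95.8%) matched a coding gene, and the primers from the supplementary material. The members, the gene lists and the tests were chosen with earlier results of these data known. The named genes were the members, REV1, the markers, list genes with an adjusted p under 0.05 (up to 4 per list and comparison in the blocked fit) and the 5 genes most like DDAH1. Other genes were named after their values were seen: MAT2A, MAT2B, AHCY, CLNS1A, TOB1, ASS1, ASL, PRMT9, NDUFAF7, JMJD6, SMN1, the nitric oxide genes and the genes that overlap a member. Values of 1 gene of the lists, which enters the counts, are not reported here. Figures were drawn with matplotlib 3.10.9 in Python 3.11.15.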

Additional observations from a re-analysis of the deposited data

Results flagged for a closer look

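The effects of the siRNAs on 7 genes differed from each other by the direct test of SiREV1#1 against SiREV1#2 with the replicate number as a block in edgeR, which called 17.6% of all genes and 10.9% of the tested pathway genes. The log2 differences, SiREV1#1 minus SiREV1#2, were 1.20 for PRMT2 and 1.56 for CARM1 among the arginine methyltransferases. They were 1.301 for BTG2, 1.84 for GATM, 1.92 for MAT1A, 0.98 for SLC7A1 and -0.85 for WDR77 among the other genes of the pathway.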

How the results depend on the processing

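The counts of called genes depended on whether the replicate number was modelled. For SiREV1#1, edgeR without a block called 0 of the arginine methylation genes, against 2 with the replicate block, 1 in DESeq2, 3 in limma with the block and 4 in both tools with replicates 2 and 3 alone. For SiREV1#2 these were 0, against 1 with the replicate block, 3 in limma with the block and 5 in both tools with replicates 2 and 3 alone. Between the siRNAs they were 0, against 2 with the replicate block, 1 in DESeq2, 1 with all 9 count columns, 1 in each limma fit without a block, 4 in limma with the block, and 5 in edgeR and 6 in limma with replicates 2 and 3 alone (DDAH1 included). Over all genes, the shares called for SiREV1#1 were 0.296% in edgeR without a block, 12.3% with it, 4.01% in DESeq2 and 18.5% in limma with the block. For SiREV1#2 they were 0.00%, 1.91%, 1.52% and 10.5%, and between the siRNAs 0.676%, 17.6%, 6.18% and 35.2%. Between the siRNAs, all 9 count columns gave 5.15%, and the limma fits without a block gave 2.87% to 4.97%. For the pathway lists, edgeR without a block called 0 in each comparison. With the replicate block it called 5 for SiREV1#1 and 5 between the siRNAs, and DESeq2 called 1 between the siRNAs. Limma with the block called 8, 3 and 14 of 43 (18.6%, 6.98% and 32.6%, beside 18.5%, 10.5% and 35.2% of all genes). Replicates 2 and 3 alone gave 32, 20 and 27 in edgeR (beside 46.5%, 38.4% and 54.4% of all genes) and 31, 24 and 31 in limma (beside 54.3%, 52.7% and 67.9%). Leaving out 1 library without a block gave 0 calls throughout, and with the block in limma 1 to 4, 1 to 4 and 2 to 5 arginine methylation genes. Over all genes, those blocked limma fits called 6.28% to 35.4% for SiREV1#1, 1.64% to 31.7% for SiREV1#2 and 17% to 50.6% between the siRNAs. Over all genes, calls without and with the block were 42 and 1744 for SiREV1#1, 0 and 271 for SiREV1#2, and 96 and 2503 between the siRNAs. In edgeR, the block changed no call of the arginine methylation and pathway genes other than those counted here.

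DDAH1 with SiREV1#2 was 1.445 in edgeR with replicates 2 and 3 alone and 0.268 to 1.775 when 1 library was left out, and with SiREV1#1 0.716 to 1.331. Its difference between the siRNAs was -0.583 (edgeR) and -0.528 (limma) with replicates 2 and 3 alone, and -0.739 to 0.777 when 1 library was left out. Signs turned for values that had not passed without a block, some of which passed with replicates 2 and 3 alone. PRMT1 with SiREV1#2 was -0.069 in edgeR without a block, 0.024 with 9 count columns, 0.016 in the limma fits, 0.033 and 0.053 with replicates 2 and 3 alone and -0.407 to 0.205 when 1 library was left out. Between the siRNAs it was -0.015 and -0.049 with replicates 2 and 3 alone and -0.095 to 0.525 when 1 library was left out, and with SiREV1#1 -0.051 to 0.255. PRMT3 with SiREV1#1 was -0.088 in limma, -0.094 with a pseudocount of 0.1 and -0.123 to 0.295 when 1 library was left out, and -0.374 to 0.406 with SiREV1#2 and -0.361 to 0.427 between the siRNAs. Leaving out 1 library also turned DDAH2 between the siRNAs (-0.274 to 0.178), PRMT2 and PRMT5 with SiREV1#2 (-0.972 to 0.098 and -0.076 to 0.018) and PRMT7 with SiREV1#1 (-0.17 to 0.06). The cause was not tested. With the block in edgeR, the adjusted p was 0.063 and 0.097 for DDAH2 with SiREV1#1 and SiREV1#2 and 0.079 for PRMT5 with SiREV1#1. Without a block these were 0.44 or more. The smallest change that the fits could call with 2 or 3 libraries per group was not worked out.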
